A study of Mus musculus with 45 samples.

Results

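The comparison described here was between whole brain tissue of mice given lipopolysaccharide (LPS) and whole brain tissue of untreated mice. LPS is a component of the outer membrane of Gram-negative bacteria. All 8 libraries of brain tissue were used, out of 45 samples in the series, and they were assigned by their labels to 4 LPS and 4 untreated mice. The other samples were microglia sorted from adult mice or from cultured brain slices. Mice of both brain groups were labelled WT (wild type). They were C57BL/6, 10 to 15 weeks of age and, per the methods of the study, female. The LPS group received 1 mg/kg by intraperitoneal injection and was taken at 24 h. The control group was not injected, so LPS cannot be told apart from the injection and handling. The labels number the samples of each group but do not say more about how they were obtained, and p-values measure the spread between these samples.

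Peripheral LPS is sensed by Toll-like receptor 4 on myeloid and endothelial cells, and signals of the blood reach the brain in large part through the cells of its vessels. Brain endothelium responds with adhesion molecules and prostaglandin and cytokine signals, microglia change their surface receptors, and astrocytes take on a reactive state marked by *Gfap* and acute-phase proteins. Type I interferon, made downstream of Toll-like receptors, induces a common set of antiviral and antigen-presentation genes in almost every cell type.

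Total counts ran from 9641550 to 10368578 in untreated and from 8199863 to 9452488 in LPS libraries, so the LPS libraries were shallower without exception. LPS replicate 3 stood apart from the other LPS mice. Chi-square values of its counts against those of the others, per degree of freedom, ran from 4.16 to 6.54, against 2.11 to 2.94 among the other LPS libraries and 1.77 to 2.39 among untreated ones. Some of the results that lean on it are also given without it. In 3 stretches of the genome every protein-coding gene was listed at 0 in all 8 brain libraries, namely chromosome 1 from 115.7 to 136.5 Mb and from 143.6 to 163.7 Mb, and chromosome 2 from 3.1 to 22.9 Mb. They hold 361 protein-coding genes, of which 200 had at least 80 counts in all over the 8 adult microglia libraries. *Gad2*, *Vim*, *Mrc1*, *Ptgs2*, *Btg2*, *Il10* and *Cd55* lie there. An exact 0 can be a failed estimate, and nothing is said here about these genes.

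Expression was compared by edgeR's quasi-likelihood test with Benjamini-Hochberg adjustment over the 15083 genes that passed a filter on low counts. A gene was called changed at an adjusted p under 0.05 and a fold change over 1.5. Levels are in CPM, with library sizes adjusted by the trimmed mean of M-values (TMM), and differences are log2 fold changes of LPS over untreated with their standard error (SE). Of the genes tested, 479 (3.18%) were called, 396 higher (2.63%) and 83 lower (0.55%). All 4 LPS libraries lay above every untreated library for 379 of the genes called higher, and all 4 lay below for 80 of those called lower. Over all genes tested, the LPS libraries lay above every untreated library in 9.09% and below in 7.81%. An unadjusted p under 0.05 was reached by 3552 of the 15083, the background for such counts in the lists below. The median log2 fold change was 1.11 among genes called higher, -0.863 among genes called lower and 0.0029 over all genes. A log2 fold change over 2 was reached by 60 genes called higher, whereas 2 genes called lower passed -2.

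**Figure D1:**
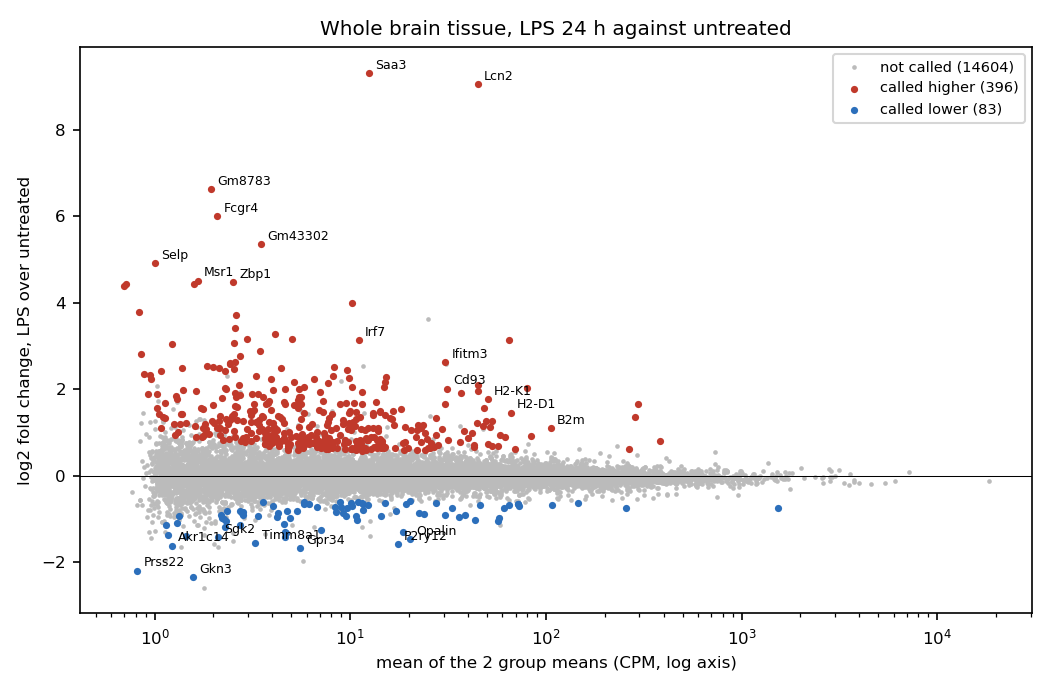
Log2 fold change of LPS over untreated brain (vertical axis) against the mean of the group means in CPM (horizontal log axis), with 1 point per gene tested, red for genes called higher and blue for genes called lower. Red points outnumber blue ones by 396 to 83, and *Saa3* and *Lcn2* lie highest, at 9.32 and 9.07.

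Interferon-stimulated genes were higher nearly throughout. Of 30 listed genes, all were tested, and 27 were called higher and 0 lower, with a median log2 fold change of 1.93. *Ifitm3*, a membrane protein that blocks the entry of viruses, stood at 7.74, 9.14, 8.17 and 8.88 CPM in untreated and at 46.6, 49.5, 59.1 and 56.3 CPM in LPS brain (log2 fold change 2.64, SE 0.10, adjusted p = 2.57e-10, edgeR). *Irf7*, the transcription factor that amplifies interferon production, went from 2.11, 1.94, 2.90 and 1.99 CPM to 16.1, 22.2, 20.3 and 20.7 CPM (3.14, SE 0.15, adjusted p = 4.4e-09). For both genes every LPS library was above every untreated one with a wide gap. *Zbp1*, a sensor of Z-form nucleic acids, had the largest log2 fold change of the list, 4.48 (SE 0.33), from a mean of 0.204 ± 0.0871 (SD, n = 4) to 4.82 ± 0.885 CPM. *Trim30a*, which restrains Toll-like receptor signalling, rose by 2.24 (SE 0.15) and was the most even of the 4, with LPS values of 10.3 to 11.2 CPM. *Stat2*, a signal transducer of the interferon receptor, passed the adjusted p but not the fold limit, at 31.7 ± 1.53 and 41.9 ± 4.38 CPM (log2 fold change 0.40). *Cmpk2*, a mitochondrial kinase, was not called at 0.16.

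Genes of MHC class I, which present peptides from inside the cell, were called higher in 12 of 18 tested and lower in 0, with a median of 1.14. *H2-K1*, a classical heavy chain, stood at 22.3, 24.0, 21.8 and 22.6 CPM in untreated and at 76.1, 75.0, 73.2 and 88.3 CPM in LPS brain (log2 fold change 1.78, SE 0.07, adjusted p = 4.34e-10). *H2-D1*, the other classical heavy chain, rose by 1.47 (SE 0.07), and *B2m*, the light chain shared by all class I molecules, by 1.1 (SE 0.05), from 67.4 ± 2.62 to 145 ± 8.23 CPM. The 4 values of each group were tight and far apart for all 3. The non-classical *H2-Q4* and *H2-T23* rose by 2.05 and 1.18. Heavy-chain genes are close copies of one another, and reads shared between them could have been split. *Psme1*, an activator of the proteasome, passed the adjusted p but not the fold limit (log2 fold change 0.49), and so did *H2-T22* (0.54). MHC class II behaved differently in its count: of 7 genes tested, *H2-DMb1* was called higher and 0 lower, with a median of -0.01. Its chaperone *Cd74* stood at 4.91 ± 0.168 and 6.72 ± 1.61 CPM (adjusted p = 0.117) and *H2-DMa* at 8.69 ± 0.909 and 8.61 ± 0.793 CPM. The call of *H2-DMb1* (log2 fold change 0.90, adjusted p = 0.0412) was lost in 6 of the 8 fits that left out 1 library, all but those without LPS replicate 1 or 3, where it held.

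Interferon-inducible GTPases, which attack the vacuoles of intracellular pathogens, were called higher in 13 of 14 tested, with a median of 1.67. *Irgm1* rose by 1.40 (SE 0.11), from 8.24 ± 0.747 to 21.8 ± 2.93 CPM, *Gbp3* by 1.51 (SE 0.16) and *Ifi47* by 2.43 (SE 0.27). The remaining member, *Gbp5*, stood at 3.42, 5.05, 4.14 and 4.18 CPM in untreated and at 8.33, 8.02, 22.6 and 9.10 CPM in LPS brain. Its groups did not overlap, its adjusted p was 0.0592, and LPS replicate 3 was more than 2 times any other library. Without that library its log2 fold change was 1.01 instead of 1.5 and it was called (adjusted p = 0.000114). The GTPases summed to 153, 143, 249 and 147 CPM in the LPS libraries, with replicate 3 again highest, against 53.9 to 59.2 CPM in untreated ones.

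Promoter sequence was available for 10976 of the genes tested, in windows of 250 bases before and 50 after the RefSeq start (build GRCm38.p6), among them 278 of the genes called higher and 55 called lower. An interferon-response-element-type motif, 2 runs of GAAA in the same direction with 2 bases between, on either strand, was present in 41 promoters of the former (14.7%), in 2 of the latter (3.64%) and in 2.87% of all. Within the interferon, GTPase and MHC class I lists it was in 22 of 37 promoters called higher (59.5%), and outside them in 19 of 241 (7.88%). A kB-type motif, GGGA and CC with 4 bases between on either strand, was in 31.3% of promoters called higher, in 30.9% of those called lower and in 26.6% of all. A STAT-type motif, TTCNNNGAA on either strand, was in 12.6% against 6.62%, and the glucocorticoid-type half-site pair ACANNNTGT in 8.63% against 4.06%. These are counts of letters, with no test, and different motifs can overlap in 1 promoter. The stretches around the matches are printed for the called genes with the smallest p that hold the first or second motif, so that the letters stand beside the expression values. Capitals mark the motif. *Ifitm3* (chr7:141010695-141010994, minus strand) has interferon-type matches that begin 3 and 20 bases after its start and a kB-type match at position -116, *B2m* (chr2:122147437-122147736, plus strand) has an interferon-type match at -139, and *H2-K1* (chr17:34000298-34000597, minus strand) has overlapping kB-type matches at -111 and -110.
Ifitm3, interferon-type: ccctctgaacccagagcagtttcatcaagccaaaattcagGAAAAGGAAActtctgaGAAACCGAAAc
B2m, interferon-type: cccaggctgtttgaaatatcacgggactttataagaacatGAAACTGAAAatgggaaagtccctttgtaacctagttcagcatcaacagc
Ifitm3, kB-type: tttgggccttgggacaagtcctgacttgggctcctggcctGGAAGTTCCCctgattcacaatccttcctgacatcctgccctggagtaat
H2-K1, kB-type: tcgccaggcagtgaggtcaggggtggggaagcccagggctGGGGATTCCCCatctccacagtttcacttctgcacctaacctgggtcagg

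**Figure D2:**
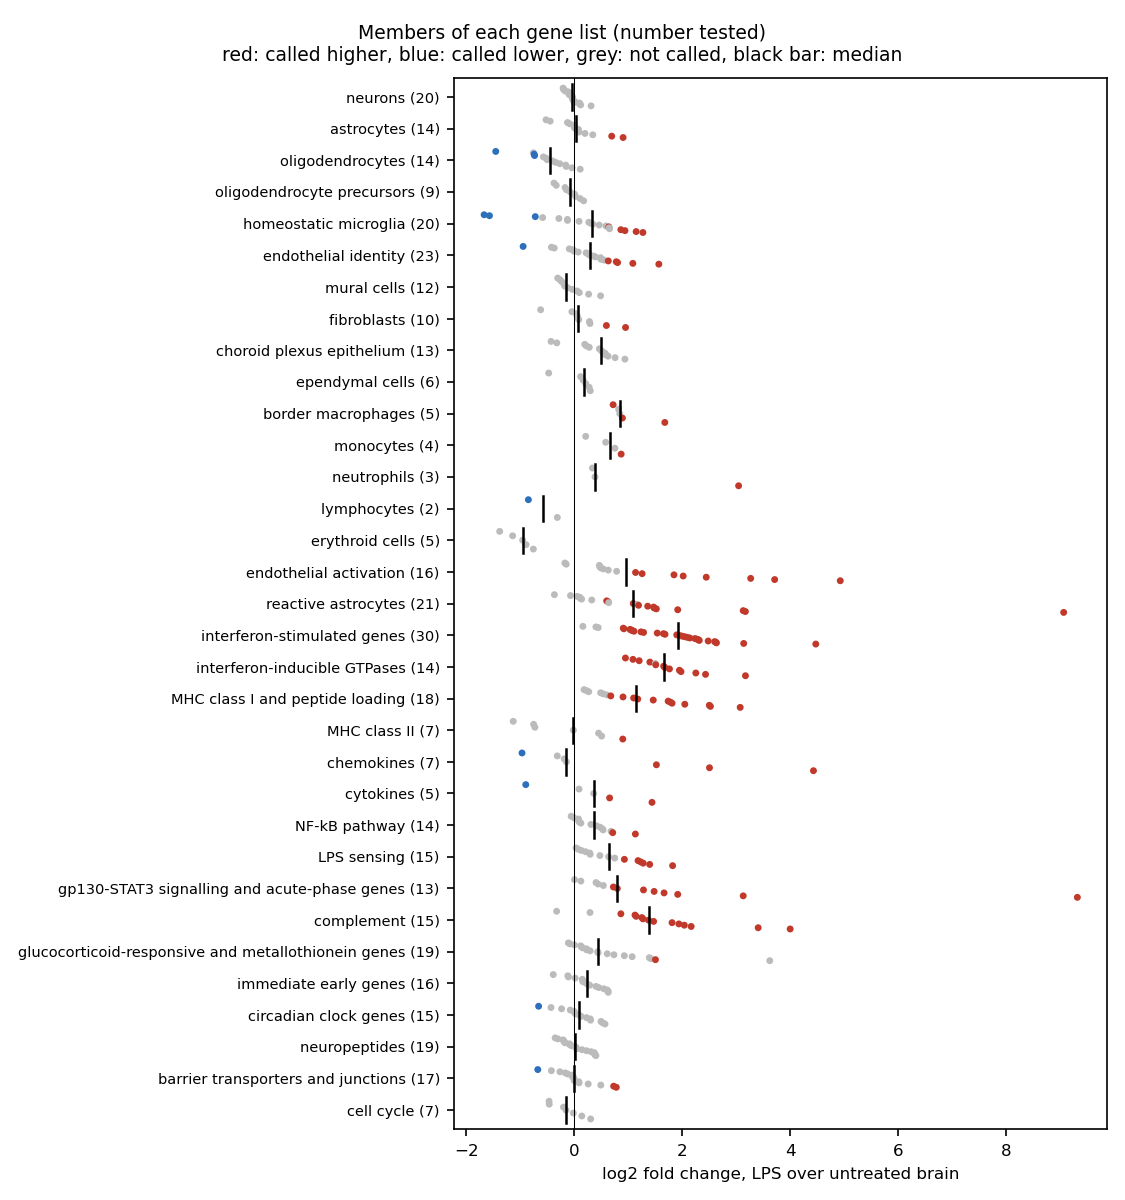
Log2 fold change of LPS over untreated brain (horizontal axis) for each tested member of the 33 gene lists (rows, number tested in brackets), red for called higher, blue for called lower, grey for not called, with the list's median as a black bar. The interferon-stimulated genes, GTPases and complement have the highest medians, 1.93, 1.67 and 1.38, and the erythroid list the lowest, -0.95, with 0 of 5 called.

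Endothelial genes were among the changes with the smallest p. Fewer cells of a type and less RNA per cell cannot be told apart in whole tissue, and the same holds for more. Of 16 activation genes tested, 8 were called higher and 0 lower, with a median of 0.96. *Cd93*, a surface glycoprotein of endothelium and myeloid cells, stood at 12.1, 12.2, 12 and 12.9 CPM in untreated and at 47.9, 49.9, 45.3 and 56.4 CPM in LPS brain (log2 fold change 2.02, SE 0.08, adjusted p = 4.46e-10). *Nos3*, the endothelial nitric oxide synthase, rose by 1.14 (SE 0.09). *Lrg1*, a secreted glycoprotein, went from 0.762 ± 0.0814 to 4.64, 4.83, 11.6 and 8.87 CPM. It was also called higher in the sorted adult microglia, with means of 0.0741 CPM after PBS and 48.0 CPM after LPS. *Selp*, the adhesion receptor P-selectin, had 2 counts over the untreated libraries and 68 over the LPS libraries, a ratio per total count of 38.6 (95% exact interval 10.3 to 326, counting error only). The vascular adhesion receptor *Vcam1* stood at 26.2 ± 2.03 and 36.9 ± 6.81 CPM (log2 fold change 0.49, under the fold limit). *Sele*, E-selectin, did not pass the filter, with 1, 0, 0 and 1 counts in untreated and 5, 6, 14 and 12 counts in LPS libraries.

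Of 23 genes of endothelial identity, 5 were called higher and 1 lower, with a median of 0.30. *Pecam1*, an adhesion molecule of endothelial junctions, went from 18.9 ± 0.898 to 40.3 ± 4.14 CPM (1.09, SE 0.08) and *Ly6c1* from 24.2 ± 2.81 to 71.9 ± 14.1 CPM (1.57, SE 0.14). *Cd34* rose by 0.63 (SE 0.09), although without LPS replicate 4 it was not called. Its means in sorted microglia were 335 CPM after PBS and 595 CPM after LPS. The tight-junction protein *Cldn5* rose from 26.7 ± 2.80 to 45.8 ± 7.71 CPM (0.78, SE 0.12). The glucose transporter *Slc2a1* (log2 fold change 0.26) and the receptor *Flt1* (-0.09) were not called. *Itm2a* fell by 0.95 (SE 0.22), a call lost in 6 of the 8 fits that left out 1 library, all but those without LPS replicate 2 or 3. Among 17 barrier transporters and junction genes, *Cldn5* and *F11r* were called higher and the amino acid transporter *Slc7a5* lower. *F11r* went from 8.20 ± 0.740 to 13.6 ± 1.98 CPM, and its means in sorted microglia were 1043 and 1107 CPM. *Slc7a5* stood at 79.5, 81.4, 80.3 and 78.7 CPM in untreated and at 46.9, 50.5, 55.6 and 47.7 CPM in LPS brain (-0.67, SE 0.06, adjusted p = 1.59e-06), with the groups well apart. The basement-membrane collagen *Col4a1* rose by 0.93 (SE 0.06), from 57.6 ± 3.73 to 110 ± 8.92 CPM. Of 12 mural cell genes tested 0 were called by edgeR or DESeq2. An unadjusted p under 0.05 was reached by 3, all lower, and by 3552 of all 15083 genes tested. Summed over the mural list, 3 of 4 LPS libraries stood at 265 to 271 CPM and replicate 3 at 208, against 274 to 307 in untreated libraries.

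Microglial genes changed in both directions. Of 20 listed genes of homeostatic microglia, *Tyrobp*, *Ctss*, *C1qa*, *C1qb* and *C1qc* were called higher and *P2ry12*, *Gpr34* and *Siglech* lower, with a median of 0.33. *Ctss*, the lysosomal protease cathepsin S, went from 39.98 ± 3.16 to 76.8 ± 4.71 CPM (0.94, SE 0.07). *C1qa*, a subunit of the first complement component, went from 29.7, 30.9, 30.7 and 32.2 CPM to 67.7, 81.6, 64.9 and 84.4 CPM (1.27, SE 0.08). The groups were far apart, with LPS replicates 1 and 3 lowest among the LPS values. The purinergic receptor *P2ry12*, which guides the processes of microglia to damage, stood at 27.6, 25.2, 27.8 and 24.0 CPM in untreated and at 11.8, 9.55, 4.35 and 9.21 CPM in LPS brain (-1.57, SE 0.21, adjusted p = 0.00155). The receptor *Gpr34* stood at 8.49 ± 0.496 CPM in untreated and at 3.48, 3.18, 0.604 and 3.26 CPM in LPS brain (-1.67, SE 0.30). Replicate 3 was lowest for both, and their log2 fold changes without it were -1.35 for each, both still called. *Csf1r* and *Cx3cr1* were not called. LPS replicate 3 lay below the untreated values for both, while the remaining LPS libraries lay above them. *Csf1r*, for example, stood at 113, 113, 83.6 and 131 CPM in LPS and at 84.6 to 95.6 CPM in untreated brain. Summed over the list, the LPS libraries stood at 757, 792, 542 and 839 CPM against 516 to 571 CPM in untreated ones. Without LPS replicate 3, 9 of the 20 were called higher and 2 lower, and *Siglech* was no longer called.

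The sorted adult microglia of the same series, 4 libraries after LPS and 4 after PBS, give levels that the whole tissue does not resolve. They were prepared from other mice with another library kit and their table was normalized separately. Of 396 brain genes called higher, 395 had a row in that table. Their level in PBS microglia over that in untreated brain, as log2 of CPM plus 1, was above 2 for 202 of them (51.1%), against 9.41% of all genes tested. It was below -2 for 59 (14.9%), against 27.8% of all. Among 82 genes called lower with a row, 43 (52.4%) were below -2 and 9 (11%) above 2. Untreated brain levels enter both this ratio and the fold change, so no test was made. Genes on the microglia-poor side that were called higher included *Cd93*, *Col4a1*, *Nos3*, *Ly6c1*, *Cldn5*, *Gfap*, *Agt* and *Serping1*. Some called members of lists named for other cells were on the microglia-rich side, namely *Cd34*, *Icam1*, *F11r*, *Srgn*, *Ggta1*, *Stab1*, *Lyz2*, *S100a9* and *Ighm*. How much of their change in brain came from microglia was not tested.

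**Figure D3:**
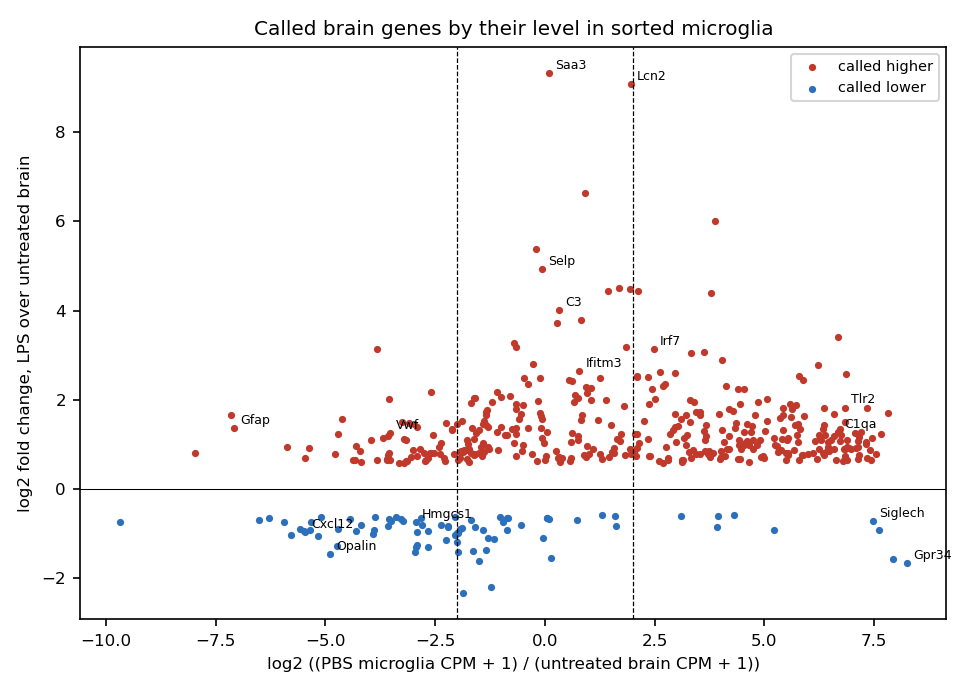
Log2 fold change in brain tissue (vertical axis) against log2 of CPM plus 1 in PBS microglia over CPM plus 1 in untreated brain (horizontal axis) for the genes called in brain tissue, red for higher and blue for lower, with dashed lines at 2 and -2. 202 red points lie right of the upper line and 59 left of the lower one, whereas 43 blue points lie left of the lower line.

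In the sorted microglia 27.4% of 12987 tested genes were called, 14.4% higher and 13% lower. Of the 297 brain genes called higher that were tested there, 161 were called higher, 12 lower and 124 not. Of the 34 called lower in brain and tested there, 17 were called lower, 4 higher and 13 not. Levels in PBS microglia set the microglia-rich class and also enter the microglial fold change. Of the 9 genes called lower in brain that were rich in microglia, all 9 were called lower in both. *P2ry12*, *Gpr34* and *Siglech* are among them: *P2ry12* fell from 6.6e+03 to 1.07e+03 mean CPM in microglia and *Gpr34* from 2.88e+03 to 537. *C1qa*, called higher in both, had microglial means of 3.25e+03 and 5.04e+03 CPM. *Pecam1*, *S100a9* and *Slc7a5* had brain and microglial fold changes of opposite sign, 1.09 and -1.59, 3.05 and -3.73, and -0.67 and 1.54. The difference between the tissues was not tested.

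Astrocyte genes split by kind. Of 14 general astrocyte genes, *Gjb6*, a gap-junction protein, and *Agt*, angiotensinogen, were called higher and 0 lower, with a median of 0.04. *Gjb6* went from 43.3 ± 3.51 to 59.5, 63.1, 84.0 and 74.8 CPM (0.70, SE 0.11). The glutamate transporter *Slc1a2*, the most abundant of the list, stood at 2995 ± 120 and 3005 ± 77.9 CPM (log2 fold change 0.00) and *Aldoc* passed the adjusted p but not the fold limit at 0.20. Of 21 genes of reactive astrocytes tested, 12 were called higher and 0 lower, with a median of 1.09. *Lcn2*, lipocalin 2, an iron-siderophore-binding acute-phase protein, stood at 0.201, 0, 0.31 and 0.104 CPM in untreated and at 39.7, 42.6, 179 and 96.7 CPM in LPS brain (9.07, SE 1.26, adjusted p = 0.00734). It was not called by limma-voom. *Serping1*, a complement inhibitor, rose by 1.47 (SE 0.15), *Srgn* by 1.19 and the small heat-shock protein *Hspb1* by 1.52. *Srgn* and *Lcn2* were also called higher in sorted microglia, with means of 88.1 and 458 CPM and of 3.49 and 43.7 CPM. *Gfap*, the astrocyte intermediate filament, was chosen here after its values were seen and went from 158, 162, 160 and 160 CPM to 298, 355, 511 and 483 CPM (1.36, SE 0.18, adjusted p = 0.00611). The LPS libraries were above the untreated ones without overlap and differed by up to 1.7 times among themselves. The list summed to 593, 641, 1153 and 957 CPM in LPS and to 284 to 297 CPM in untreated libraries, with replicates 3 and 4 high. *S100a10* (0.11) and *Amigo2* (0.33) were not called.

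**Figure D4:**
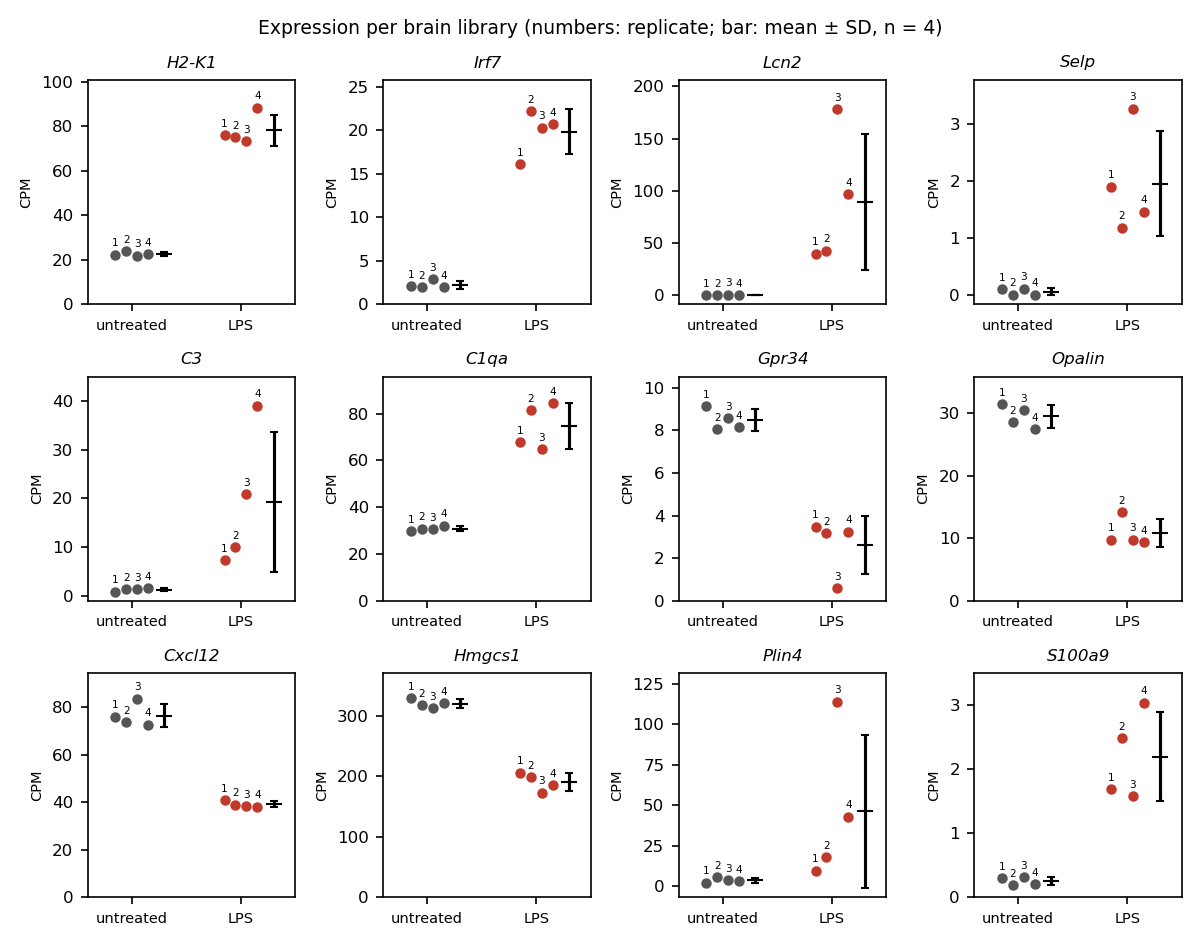
Level in CPM (vertical axes from 0) of 12 genes in each untreated (grey) and LPS (red) brain library, numbered by replicate, with the group mean ± SD (n = 4) beside them. *Opalin*, *Cxcl12*, *Gpr34* and *Hmgcs1* lie lower in LPS, the others higher. Among the LPS libraries replicate 3 is highest for *Lcn2*, *Selp* and *Plin4* and lowest for *Gpr34*, *H2-K1*, *C1qa*, *Hmgcs1* and *S100a9*.

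Complement genes were called higher in 13 of 15 tested and lower in 0, with a median of 1.38. Lists share members, so their counts are not separate. *C1qa*, *C1qb* and *C1qc* also count among homeostatic microglia, and *Serping1* among reactive astrocytes. *Osmr*, *Cp* and *Serpina3n* count both among reactive astrocytes and among the gp130 and acute-phase genes below. *C3*, the central component, was chosen after its values were seen and stood at 0.804, 1.26, 1.24 and 1.46 CPM in untreated and at 7.28, 10.0, 20.9 and 39.1 CPM in LPS brain (4.0, SE 0.77, adjusted p = 0.0239). The LPS values spread widely and did not overlap the untreated ones. *Cfp* (0.29) and *Cd59a* (-0.32) were not called. Of 13 genes of gp130 and STAT3 signalling and the acute phase tested, 8 were called higher, with a median of 0.80, and the count fell to 4 without untreated replicate 1 and to 5 without untreated replicate 2, 3 or 4. *Socs3*, a feedback inhibitor of this pathway, went from 2.20 ± 0.629 to 7.04 ± 1.65 CPM (1.67, SE 0.23) and *Osmr*, the oncostatin M receptor, from 3.79 ± 0.841 to 10.7 ± 3.11 CPM. *Saa3*, serum amyloid A3, had 1 count over the untreated libraries and 860 over the LPS libraries, a ratio of 978 (95% exact interval 175 to 38700, counting error only). Its CPM in the LPS libraries were 11.4, 17.2, 45.1 and 26.2. Without untreated replicate 4, in which its only untreated count fell, it was not called (adjusted p = 0.0938). In sorted microglia *Saa3* was also called higher, with means of 0.0920 CPM after PBS and 167 CPM after LPS. *Stat3* itself passed the adjusted p but not the fold limit (0.44, SE 0.06).

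Among genes of the sensing of LPS and other microbial products, receptors and signalling proteins together, 6 of 15 tested (*Tlr2*, *Tlr4*, *Tlr7*, *Tlr13*, *Cd14* and *Lbp*) were called higher and 0 lower, with a median of 0.64. *Tlr2* rose by 1.82 (SE 0.28), from 1.13 ± 0.348 to 4.08 ± 1.08 CPM, and *Lbp*, the LPS-binding protein, by 1.40 (SE 0.20). *Irak1* (0.04) and *Traf6* (0.13), signalling proteins downstream, were not called. Of 14 genes of the NF-kB pathway, *Nfkb2* (1.13, SE 0.15) and *Nfkbiz* (0.71, SE 0.17) were called higher. *Tnip1* stood at -0.01 and *Nfkb1* at 0.31. *Nfkbiz* was not called without untreated replicate 1 or 2. Without LPS replicate 3, 3 genes of this list were called.

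Few cytokine and chemokine genes were deep enough to test, 5 of 16 and 7 of 21. *Cxcl10*, a ligand for receptors of activated T cells, went from 0.587 ± 0.201 to 3.38 ± 0.596 CPM (2.51, SE 0.29) and *Cxcl16* from 1.64 ± 0.32 to 4.76 ± 0.511 CPM. *Il1a* and *Tgfb1* were called higher at 1.44 and 0.66, *Il1a* not without LPS replicate 4 and *Tgfb1* not without untreated replicate 1. *Il33*, an alarmin of astrocytes and oligodendrocytes, stood at 52.7, 48.9, 47.3 and 52.2 CPM in untreated and at 30.9, 33.0, 16.3 and 27.4 CPM in LPS brain (-0.90, SE 0.18, adjusted p = 0.0197). The groups did not overlap, but the call was lost without LPS replicate 4 or without untreated replicate 1, 2 or 4. Without LPS replicate 3 the log2 fold change of *Il33* was -0.72 and it was called. *Cxcl12*, which holds leukocytes and neural precursors in place, stood at 76.1, 73.8, 83.6 and 72.7 CPM and at 40.9, 39.0, 38.4 and 38.2 CPM (-0.97, SE 0.06, adjusted p = 6.04e-08), with the groups far apart and the smallest p of all genes called lower. Genes under the filter were at a few counts in most libraries. *Tnf* had 1, 3, 0 and 0 counts in untreated and 1, 3, 9 and 7 in LPS libraries, *Il1b* 2, 2, 2 and 2 against 6, 7, 12 and 9, and *Ccl2* 1, 0, 0 and 1 against 8, 4, 7 and 12. *Ccl12* had 2, 2, 3 and 2 counts against 54, 37, 8 and 58, with replicate 3 low. No difference in *Il6* was detectable at this depth.

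Genes of oligodendrocytes, the myelin-forming cells, were called lower in 3 of 14 tested, *Opalin* and *Mog* among them, and higher in 0, with a median of -0.45. All 4 LPS libraries lay below every untreated library for 10 of the 14. *Opalin*, a membrane protein of myelinating cells, stood at 31.5, 28.6, 30.5 and 27.5 CPM in untreated and at 9.81, 14.1, 9.79 and 9.44 CPM in LPS brain (-1.45, SE 0.11, adjusted p = 7.1e-07). *Mog* went from 76.7 ± 4.26 to 48.4, 56.9, 30.9 and 47.0 CPM (-0.74, SE 0.16), and was not called without any 1 of the untreated replicates or LPS replicate 1 or 4. Without LPS replicate 3 its log2 fold change was -0.60 and it was called. *Mbp*, the most abundant of the list, passed the adjusted p but not the fold limit (-0.16, SE 0.04), and *Mobp* stood at 0.11 (adjusted p = 0.474). The list summed to 5810, 6165, 5098 and 5971 CPM in LPS and to 6796 to 7426 CPM in untreated libraries, without overlap and with replicate 3 lowest. Its median member stood at -0.83 in replicate 3, as log2 over the untreated mean, against -0.29, -0.26 and -0.43 in replicates 1, 2 and 4. Precursor genes were called in 0 of 9 by edgeR or DESeq2, with a median of -0.07. The 1 gene with an unadjusted p under 0.05, *Cspg5*, passed the adjusted p but not the fold limit (-0.33, SE 0.08). It stood at 244 ± 6.22 and 194 ± 24.0 CPM, with all 4 LPS libraries below every untreated one.

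The genes called lower with the smallest p also included *Hmgcs1* and *Dhcr7*, enzymes of cholesterol synthesis. *Hmgcs1* stood at 329, 318, 312 and 321 CPM in untreated and at 206, 199, 173 and 186 CPM in LPS brain (-0.74, SE 0.05, adjusted p = 1.52e-07). *Dhcr7* stood at 23.6 ± 1.49 and 15.1 ± 0.697 CPM (-0.65, SE 0.08). For both, the highest LPS library was below the lowest untreated one. *Ltbp4* (-0.71), which tethers latent TGF-beta to the matrix, *Ednrb* (-0.67), an endothelin receptor, *Robo3* (-0.91), a guidance receptor, and *Tst* (-0.80), a mitochondrial sulfurtransferase, fell as well. By size, beside *Gpr34*, *P2ry12* and *Opalin*, the rule named *Gkn3* (-2.33, SE 0.41), known in brain from arterial endothelium, and *Prss22* (-2.19, SE 0.40), *Akr1c14* (-1.61), *Timm8a1* (-1.55) and *Sgk2* (-1.42), these 5 at means under 5 CPM. On the higher side the rule by size named *Fcgr4*, an activating Fc receptor of myeloid cells, with 2 against 145 counts (ratio 82.4, 95% exact interval 22.4 to 687). It also named *Msr1*, a scavenger receptor (4.52), and 2 predicted genes, *Gm8783* and *Gm43302*. *Msn*, moesin, rose by 1.00 (SE 0.06), from 28.1 ± 1.60 to 56.0 ± 2.88 CPM.

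Many markers of blood leukocytes and border macrophages did not pass the filter on low counts. Of 10 genes of border macrophages 5 were tested, and *Cd163*, *Lyve1* and *Stab1* were called higher. *Stab1* went from 21.2 ± 0.98 to 35.1 ± 4.16 CPM (0.72, SE 0.09), with means of 673 and 1004 CPM in PBS and LPS sorted microglia, where it was not called, and *Lyve1* from 0.532 ± 0.1 to 1.73 ± 0.502 CPM, while the call of *Cd163* (0.89, SE 0.25) was lost by DESeq2 (adjusted p = 0.0514) and without LPS replicate 1, 2 or 3 or untreated replicate 1 or 4. Of 10 monocyte genes 4 were tested and *Lyz2*, which microglia also express, was called (0.87, SE 0.19). The defining *Ccr2* had 11, 4, 5 and 7 counts in untreated and 7, 2, 4 and 6 in LPS libraries. Of 12 neutrophil genes 3 were tested, and *S100a9* went from 0.302, 0.194, 0.31 and 0.209 to 1.69, 2.48, 1.57 and 3.03 CPM (3.05, SE 0.38). Its partner *S100a8* had 2, 2, 5 and 3 counts against 10, 15, 8 and 30, whereas *Mpo*, *Elane* and *Camp* had at most 2 counts in any library. Of 11 lymphocyte genes 2 were tested. *Ighm*, the heavy chain of IgM, fell by 0.85 (SE 0.11), from 28.7 ± 1.45 to 15.98 ± 2.93 CPM. It was also called lower in sorted microglia, with means of 448 and 153 CPM. *Cd3e* and *Cd8a* had at most 2 counts in any library. Haemoglobin transcripts report blood left in the tissue. Among them *Hba-a2* overlapped between groups, at 90.8, 70.9, 43.0 and 117 CPM in untreated and at 40.2, 21.1, 62.0 and 22.8 CPM in LPS brain (adjusted p = 0.199). The erythroid list had a median of -0.95, and for 1 of its genes all 4 LPS libraries lay below every untreated one. Of 5 erythroid genes 0 were called by edgeR and 1 lower by DESeq2, and 4 were lower at an unadjusted p under 0.05. The methods of the study describe perfusion of mice in the in vivo LPS experiments. The part of residual blood in the results was not tested. Of 10 fibroblast genes, *Mgp* (0.60) and *Dcn* (0.95) were called higher and 0 lower, with a median of 0.07 and *Lum* at -0.62. Neither was called without untreated replicate 1 or 4, and *Dcn* also not without untreated replicate 2 or LPS replicate 3 or 4. Choroid plexus epithelium was called in 0 of 13, with a median of 0.50, and *Ttr*, its most abundant product, stood at 353 ± 43.7 and 413 ± 34.2 CPM. Its unadjusted p was under 0.05 for 6 genes, all higher, and 1 of them passed the adjusted p but not the fold limit. Without untreated replicate 3 or LPS replicate 2, 2 choroid plexus genes were called. Ependymal genes were called in 0 of 6, with 1 at an unadjusted p under 0.05.

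Changes of neuronal genes were small. Of 20 tested, 0 were called by edgeR or DESeq2, and 4 were higher and 5 lower at an unadjusted p under 0.05. Of these, 2 higher and 4 lower passed the adjusted p but not the fold limit. Over all 15083 genes tested, 3552 had an unadjusted p under 0.05, and 914 higher and 619 lower passed the adjusted p. The log2 fold changes of the neuronal genes ran from -0.20 (*Penk*) to 0.31 (*Vip*) with a median of -0.03. *Snap25*, a protein of synaptic vesicle release, stood at 2405 ± 13.2 and 2360 ± 116 CPM. *Penk* and the kinase *Camk2a* (log2 fold change 0.10, SE 0.03) were among the genes that passed the adjusted p. Of 19 neuropeptide genes 0 were called by edgeR or DESeq2, with 2 higher and 3 lower at an unadjusted p under 0.05. Of these, 1 higher and 3 lower passed the adjusted p but not the fold limit. *Cck*, cholecystokinin, was 1 of the 3, with a log2 fold change of -0.35 (SE 0.06) and all 4 LPS libraries below every untreated one. Immediate early genes, which follow recent neuronal activity, were called in 0 of 16 by edgeR or DESeq2, with 1 at an unadjusted p under 0.05, and varied widely among mice: *Arc* ran from 36.7 to 236 CPM in untreated and from 48.3 to 260 CPM in LPS brain. Of 15 clock genes, *Dbp* was called lower (-0.66, SE 0.09). *Hlf* passed the adjusted p but not the fold limit at 0.30, and *Tef* stood at 0.03. By the adjusted p alone, 5 clock genes were higher and 2 lower, *Hlf* and *Dbp* among them. No source used here gives the time of day of collection. Without untreated replicate 4 or LPS replicate 4, 2 clock genes were called higher, and without LPS replicate 3, 2 were called lower. Cell cycle genes were called in 0 of 7 tested by edgeR or DESeq2, and 0 had an unadjusted p under 0.05, with *Pcna* at 37.0 ± 3.13 and 36.5 ± 2.86 CPM.

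The LPS mice also differed among themselves in genes that glucocorticoids induce. Of 19 such genes and metallothioneins tested, 1 was called, *Sult1a1* (1.51, SE 0.22), with a median of 0.44. Without LPS replicate 1 or 3, 2 were called. *Plin4*, a lipid droplet protein chosen after its values were seen, stood at 2.31, 5.54, 3.73 and 3.13 CPM in untreated and at 9.71, 18.2, 114 and 42.9 CPM in LPS brain. Its groups did not overlap, and the spread left it uncalled (log2 fold change 3.62, SE 1.01, adjusted p = 0.0823). *Mt1* stood at 111, 128, 118 and 112 CPM and at 109, 138, 303 and 168 CPM, with the groups overlapping and replicate 3 highest. The list summed to 1046, 1207, 1921 and 1290 CPM in LPS and to 926 to 1135 CPM in untreated libraries. It was chosen with earlier results of these data known. Its members include *Plin4*, *Fkbp5*, *Cdkn1a*, *Map3k6*, *Arrdc2* and *Pdk4*, each over 2 times every other library in replicate 3. The sum is therefore no separate evidence on replicate 3. The same library was highest for reactive astrocyte genes and GTPases, lowest for oligodendrocyte and mural genes, and within the untreated range for the sum of homeostatic microglia. The median member of that last list stood at -0.45 in replicate 3, as log2 over the untreated mean, against 0.41, 0.44 and 0.54 in replicates 1, 2 and 4. Leaving it out gave 446 genes called higher and 97 lower.

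**Figure D5:**
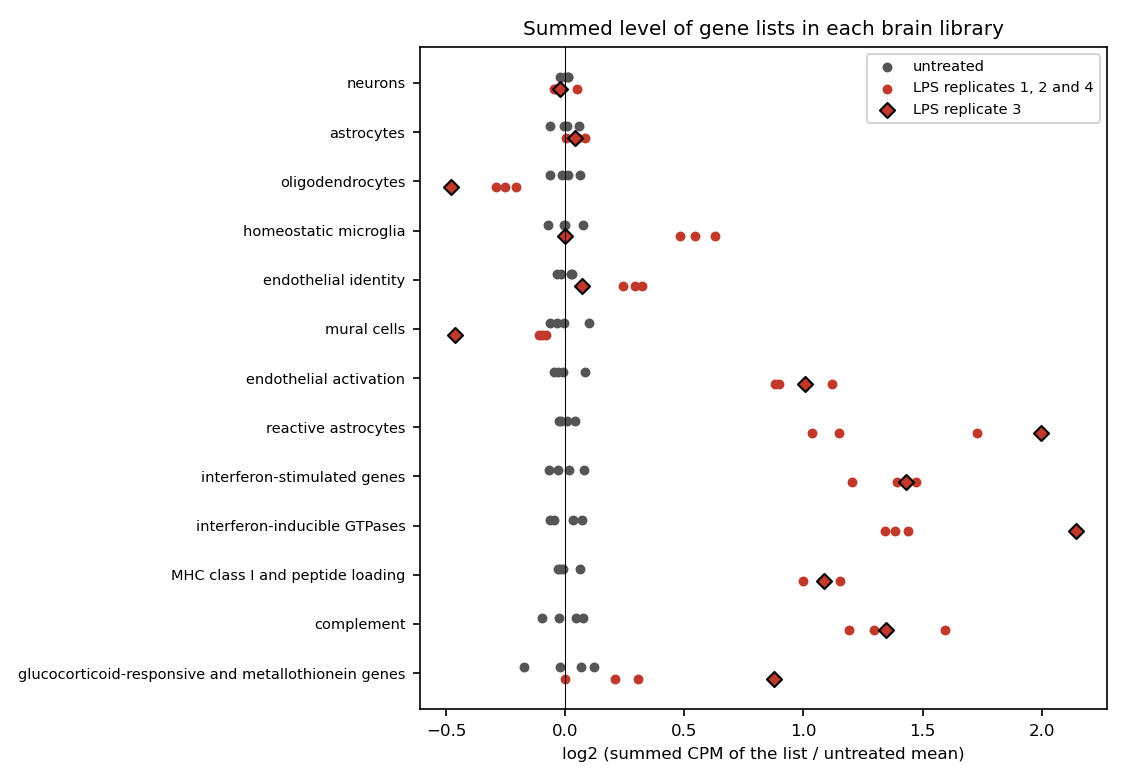
Summed CPM of 13 gene lists in each brain library as log2 over the untreated mean (horizontal axis), grey for untreated, red for LPS, with LPS replicate 3 as a diamond. The interferon, GTPase, MHC class I, complement, reactive astrocyte and endothelial activation sums are above the untreated range in all 4 LPS libraries, and replicate 3 departs from the others for GTPases, glucocorticoid-responsive genes, homeostatic microglia, oligodendrocytes and mural cells.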

How the data were processed

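RNA of flash-frozen brain tissue of 8 mice was sequenced after TruSeq mRNA library preparation. For each gene the authors deposited an estimated (expected) count, with no normalization. The submitters' processing notes name the mm10 build, and no source used here names the aligner, the counter or the use of strand. Values were rounded to whole numbers, 69680 of them not whole before, with a change of 0.00113% in the total, and 92 rows naming no gene, with 0 counts, were left out. GENCODE M21 named 42929 of 43411 identifiers, and the others held 0.126% of counts. The adult microglia table, for which the authors deposited estimated counts too, was fitted separately in the same way.

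Genes were kept by filterByExpr (at least 10 counts in a group-sized number of libraries and 15 in all) and tested with edgeR 4.0.16 (TMM, glmQLFit, glmQLFTest, 2 groups, no covariate) in R 4.3.3. DESeq2 1.42.0 and limma-voom (limma 3.58.1) were alternatives. The fits were tested on simulated data. A first limit on the share of simulated 2-fold changes recovered was missed for the microglia table and was replaced by limits on sign, size and false calls, so small changes there are found less often. The members and gene lists were chosen with earlier results of these data known. Genes named were the 12 higher and 10 lower protein-coding called genes with the smallest p; the 8 higher and 8 lower with the largest fold change at a mean of at least 1 CPM; and, per list, up to 3 called genes with the smallest p or the 2 most abundant, plus abundant members that were not called. *Gfap*, *C3*, *Plin4*, *Siglech*, *Tyrobp*, *C1qb*, *Tlr4*, *Tlr13*, *Cd14*, *Itm2a*, *Cx3cr1*, *Vip*, *Icam1*, *Ggta1*, *Lum*, *Cdkn1a*, *Arrdc2*, *Pdk4*, *Cp*, *Serpina3n* and the genes given as counts were named after their values were seen. Promoter windows are RefSeq's, and the window nearest the annotated start was used for each gene; the last 25 bases occurred in a GENCODE transcript of the same gene for 255 of 278. For genes under the microglia filter, CPM per total count stood in for TMM CPM. The median SE of a log2 fold change was 0.0923. Alternatives covered normalization, filters, depth, the replicate block and leaving out each library. Intervals cover counting error only. Same-numbered replicates did not deviate together, with correlations of 0.0428, 0.0241, 0.0278 and -0.0779 for the 4 numbers. Slice microglia were not used here. Results of some named genes are not reported here.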

Additional observations from a re-analysis of the deposited data

Results flagged for a closer look

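Within a group of 4 libraries, a value was marked where its gap to the nearest other library, as a share of the group range, exceeded the 95% critical value of Dixon's test. Chance marks about 1 in 20 groups. That share does not hold for groups at a few counts, such as untreated *Fcgr4*, *Gm8783*, *Saa3* and *Msr1*. There a gap share of 1.0 arises whenever 1 library alone has counts. The library above the rest of the LPS group, with its gap share, was marked for interferon-inducible GTPases (LPS replicate 3, 0.907), circadian clock genes (LPS replicate 3, 0.873), *Opalin* (LPS replicate 2, 0.92), *Stat3* (LPS replicate 3, 0.846), *Psme1* (LPS replicate 4, 0.85), *Stat2* (LPS replicate 3, 0.864), *Aldoc* (LPS replicate 4, 0.836), *Gbp5* (LPS replicate 3, 0.926), *Lrp1* (LPS replicate 4, 0.853), *Irak1* (LPS replicate 3, 0.893) and *Tef* (LPS replicate 3, 0.833). The library below the rest of the LPS group was marked for mural cells (LPS replicate 3, 0.901), *Gpr34* (LPS replicate 3, 0.896) and *Il18* (LPS replicate 2, 0.848). Among untreated libraries the highest was marked for *Msr1* (untreated replicate 2, 0.958), *Fcgr4* (untreated replicate 3, 1.0), *Gm8783* (untreated replicate 2, 1.0), *Tlr2* (untreated replicate 2, 0.898) and *Saa3* (untreated replicate 4, 1.0) and the lowest for *Mbp* (untreated replicate 3, 0.885) and *Pcna* (untreated replicate 2, 0.944).

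Some named genes moved one way in all 4 LPS brain libraries and the other way in all 4 LPS microglia libraries. Log2 fold changes in brain and microglia were 1.09 and -1.59 for *Pecam1*, -0.67 and 1.54 for *Slc7a5*, -0.65 and 0.74 for *Dhcr7*, 3.05 and -3.73 for *S100a9*, 0.30 and -4.87 for *Hlf* and 0.66 and -0.54 for *Tgfb1*. The microglia controls were injected with PBS and the brain controls were not, the tables were normalized separately, and the difference was not tested.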

How the results depend on the processing

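The number of genes called in brain tissue was 456 by DESeq2, 469 by limma-voom, 489 with total counts in place of TMM and 477 with libraries thinned to the smallest total. Restricting it to a mean of at least 5 CPM, an alternative chosen after seeing the data, gave 284 (232 higher and 52 lower), with fewer genes tested, and dropping the fold limit gave 1533 (914 and 619). Without a fold limit, the microglia table gave 6703 (3466 and 3237). Leaving out 1 library gave 412 to 543. With a replicate block the count was 448 (376 and 72). The replicate numbers do not pair the mice. The block also left 0 genes of endothelial identity called lower and 0 of MHC class II called higher. DESeq2 called 0 of MHC class II, 1 erythroid gene lower and 2 glucocorticoid-responsive genes higher. Total counts in place of TMM called 2 choroid plexus genes and 1 clock gene higher.

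Leaving out 1 library moved list counts as follows: astrocytes lower 0 to 1 (1 without LPS replicate 2), homeostatic microglia higher 4 to 9, endothelial identity lower 0 to 1, fibroblasts higher 0 to 2, choroid plexus higher 0 to 2, MHC class II higher 0 to 1 and lower 0 to 1 (1 without LPS replicate 1), cytokines higher 1 to 2 and lower 0 to 1, NF-kB pathway higher 1 to 3, gp130 and acute-phase genes higher 4 to 8, glucocorticoid-responsive genes higher 1 to 2, and clock genes higher 0 to 2 and lower 1 to 2. The microglia-poor class held 102 genes called higher at limits of 1 and -1 and also with a pseudocount of 0.1, 36 at limits of 3 and -3, and 27 genes called lower at the latter. A mean of log2(CPM + 1) in place of the sum gave log2 differences of -0.48 against -0.30 for oligodendrocytes, 0.12 against 0.43 for homeostatic microglia and 0.64 against 0.78 for border macrophages. Matches within 150 bases before the start were in 10.8%, 7.55%, 21.6% and 5.4% of promoters called higher for the interferon, STAT, kB and glucocorticoid types, against 1.21%, 3.33%, 15.6% and 1.65% of all. Of 143 named genes, 125 kept their direction and their side of the threshold under each alternative in which they were tested with the fold limit, and 0 reversed. The cause of these moves was not tested. Genes at a few counts limit what can be said of cytokines and leukocytes.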

Other observations

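In LPS replicate 3, 23 genes were over 2 times their level in every other library, against 2, 0 and 7 genes for LPS replicates 1, 2 and 4. A further 64 genes were under 0.5 times their level in every other library, against 24, 38 and 20. The former include *Fkbp5* (36.6, 43.5, 122 and 58.4 CPM in the LPS libraries), *Map3k6* (2.2, 4.0, 20.4 and 8.9) and *Ctla2a* (10.3, 11.3, 43.0 and 14.9). These genes were chosen after their values were seen.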
